A study of Mus musculus with 84 samples.

Results

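A set of 7 genes that mark cortical glutamatergic neurons, Slc17a7, Tbr1, Neurod1, Neurod2, Neurod6, Emx1 and Fezf2, were followed through bulk RNA sequencing of tissue labelled ventrolateral striatum. They were chosen by symbol, and all 7 were found among the 43629 genes of the deposited count table. The libraries came from 84 adult mice that had received no treatment, 44 labelled High Drinker (23 males and 21 females) and 40 labelled Low Drinker (22 males and 18 females). The mice belong to the SOT and NOT lines, selected jointly on ethanol preference and withdrawal, at the selection generation given as S4. The labels name no families or replicate selection lines, so animals were taken as independent, and a difference between the lines cannot be told apart from drift or relatedness within them.

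Excitatory projection neurons of the cerebral cortex release glutamate, which the vesicular transporter encoded by Slc17a7 loads into synaptic vesicles. They arise from dorsal progenitors that express Emx1, pass through a cascade of proneural basic helix-loop-helix factors (the Neurod genes) and acquire layer identity through factors such as Tbr1 and Fezf2. The striatum is built mainly of GABAergic medium spiny neurons, which arise ventrally and are marked by Ppp1r1b, Drd1, Adora2a and Pde10a, and it receives dense cortical axons while holding few glutamatergic cell bodies of its own.

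The Neurod proteins bind the E-box, CANNTG, so the 250 bases before each gene's start were read from RefSeq (GRCm38.p6), where all 7 genes had an entry. Shown are 4 windows, 3 that lie outside the gene as the count table bounds it and that of Neurod2, of which 3 bases lay inside the gene and were left off, so that 247 are printed. They run 5′ to 3′ on the gene's strand, with each E-box in capitals. The windows are Slc17a7 at chr7:45163671-45163920 on the plus strand, Neurod2 at chr11:98329649-98329895 on the minus strand, Neurod6 at chr6:55681264-55681513 on the minus strand and Fezf2 at chr14:12345866-12346115 on the minus strand. In the GENCODE gene annotation Fezf2 reaches to 12348189, so by that annotation its window lies inside the gene.
Slc17a7: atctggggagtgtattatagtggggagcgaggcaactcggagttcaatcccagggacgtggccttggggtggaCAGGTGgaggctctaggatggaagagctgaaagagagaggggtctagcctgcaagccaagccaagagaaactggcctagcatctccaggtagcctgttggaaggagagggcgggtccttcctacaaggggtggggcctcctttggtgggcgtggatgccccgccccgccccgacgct
Neurod2: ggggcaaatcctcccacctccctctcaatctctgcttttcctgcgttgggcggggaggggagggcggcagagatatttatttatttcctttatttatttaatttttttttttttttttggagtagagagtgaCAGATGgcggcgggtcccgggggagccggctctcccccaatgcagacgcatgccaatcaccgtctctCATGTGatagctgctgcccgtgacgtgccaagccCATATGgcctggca
Neurod6: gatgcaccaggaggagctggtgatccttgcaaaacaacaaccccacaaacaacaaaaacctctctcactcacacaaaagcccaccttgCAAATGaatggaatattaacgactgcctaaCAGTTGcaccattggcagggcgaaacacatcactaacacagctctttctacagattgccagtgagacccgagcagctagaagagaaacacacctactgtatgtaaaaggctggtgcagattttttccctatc
Fezf2: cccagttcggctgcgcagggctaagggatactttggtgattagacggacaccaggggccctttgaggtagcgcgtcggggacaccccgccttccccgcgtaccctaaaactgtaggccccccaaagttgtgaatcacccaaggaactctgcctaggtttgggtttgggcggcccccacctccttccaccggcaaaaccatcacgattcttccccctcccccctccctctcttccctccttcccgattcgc
Neurod2 held 3 E-boxes, Neurod6 held 2 and Slc17a7 held 1, while Fezf2 held 0. The windows of Tbr1, Neurod1 and Emx1 held 1 each, so 6 of the 7 members had at least 1. As the count table bounds the genes, the windows of Tbr1 and Emx1 lay wholly inside the gene. Of the 250 bases of the Neurod1 window, 115 did. CANNTG reads the same on both strands, and 66.2% of all 32851 promoter windows of this length held it, with 12.2% holding 3 or more. The matches are a description of letters and were not tested as binding sites.

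Library totals ran from 22190363 to 41300401 reads assigned to genes, and no library had a count of 0 for any member. The lowest count of any member was 4 reads, for Neurod1 in High Drinker 17. Levels are given as CPM (counts scaled to a common library size) after TMM, a normalization that aligns libraries on their bulk of shared genes. The numbers that end the sample titles run in 3 sets, here called numbering sets, of 48, 30 and 6 libraries. High Drinker and Low Drinker mice were spread over them as 30 and 18, 11 and 19, and 3 and 3. Whether these sets were processed apart is not given in the labels. Across all genes 5 libraries were least like the rest, with a median Spearman correlation to the others of 0.969 to 0.976. These are High Drinker 17 and Low Drinker 8, 32, 33 and 34. The next in order, Low Drinker 2 and High Drinker 4, were at 0.978 and 0.979. No wide gap thus sets the 5 off, and the cut after them is a choice. They are called the 5 libraries that stood apart below.

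Slc17a7 was abundant in tissue labelled as striatum. It lies on chromosome 7 at 45163921 to 45176138 (mm10, plus strand, ENSMUSG00000070570). Its lowest, median and highest levels were 94.7, 1223.8 and 1951 CPM in High Drinker libraries, against 279.9, 1277.9 and 2513 CPM in Low Drinker libraries. The lines overlapped over nearly their whole ranges, and the single lowest library, High Drinker 17, stood well below every other. Scaled by exon length (RPKM, CPM per kilobase of exon), the level of Slc17a7 averaged 395.6 ± 183.9 (SD, n = 84), beside 315.4 ± 196.8 for Ppp1r1b, the phosphatase inhibitor DARPP-32 of medium spiny neurons. Slc17a7 exceeded Ppp1r1b per length in 49 of 84 libraries, 24 of 44 High Drinker and 25 of 40 Low Drinker. The ratio of Slc17a7 to Ppp1r1b ran from 0.0410 to 26.3 with a median of 1.60, and from 0.0880 to 14.7 with a median of 1.51 without the 5 libraries that stood apart. In bulk tissue fewer cells of a type and less RNA per cell cannot be told apart, nor can cortical cell bodies in the dissected piece from transcripts of other origin.

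The transcription factors were lower than the transporter. Neurod6, a factor of postmitotic cortical and hippocampal pyramidal neurons on chromosome 6 (55677818 to 55681263, minus strand), had 8.80, 48.5 and 123.9 CPM as its lowest, median and highest values in High Drinker libraries, against 14.1, 53.8 and 128.9 CPM in Low Drinker libraries. Tbr1, a T-box factor of deep-layer corticothalamic neurons on chromosome 2 (61802930 to 61814114, plus strand), had 11.5, 109.9 and 208.0 CPM in High Drinker libraries, against 30.6, 128.0 and 213.6 CPM in Low Drinker libraries. The lines overlapped for both genes.

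Neurod2, which promotes differentiation and synapse maturation of cortical neurons, lies on chromosome 11 (98325415 to 98329648, minus strand). It had 5.08, 57.5 and 94.5 CPM in High Drinker libraries, against 13.98, 64.7 and 114.2 CPM in Low Drinker libraries. Its neighbour on the chromosome is Ppp1r1b, with 18755 bases and 0 genes lying wholly between them. The cortical and the striatal marker that moved oppositely below thus share a neighbourhood. Neurod1, the family member of newly born neurons, lies on chromosome 2 (79452521 to 79456751, minus strand). It was the scarcest, with 0.129, 3.36 and 7.09 CPM in High Drinker libraries, against 0.492, 3.08 and 6.62 CPM in Low Drinker libraries. Its exons overlap those of Cerkl on the same strand and Gm26755 on the other, and the strand setting of the counting is not given, so its level is uncertain. The exons of Ppp1r1b overlap those of 1700003D09Rik on the other strand, so the level of Ppp1r1b has a like limit.

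Emx1, a homeobox factor of the dorsal telencephalon on chromosome 6 (85187438 to 85204462, plus strand), had 0.873, 8.53 and 17.6 CPM in High Drinker libraries, against 1.38, 9.42 and 26.5 CPM in Low Drinker libraries. Fezf2, a zinc-finger factor that specifies subcortical projection neurons of layer V, lies on chromosome 14 (12341892 to 12345865, minus strand). It had 3.95, 20.1 and 58.5 CPM in High Drinker libraries, against 3.44, 20.3 and 68.9 CPM in Low Drinker libraries. In both genes the lines overlapped, and the highest library was a Low Drinker one.

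Per length the order of mean levels was Slc17a7, Neurod6 (26.87 ± 14.96 RPKM), Tbr1 (20.6 ± 9.35), Neurod2 (18.3 ± 8.89), Fezf2 (11.4 ± 7.76), Emx1 (4.46 ± 2.46) and Neurod1 (1.27 ± 0.652), each as SD over n = 84. Slc17a7 was above Neurod6, and Emx1 above Neurod1, in all 84 libraries. The order was looser in the middle, where Neurod6 exceeded Tbr1 in 71 libraries and Tbr1 exceeded Neurod2 in 68, with means that differed by less than 1 SD.

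**Figure D1:**
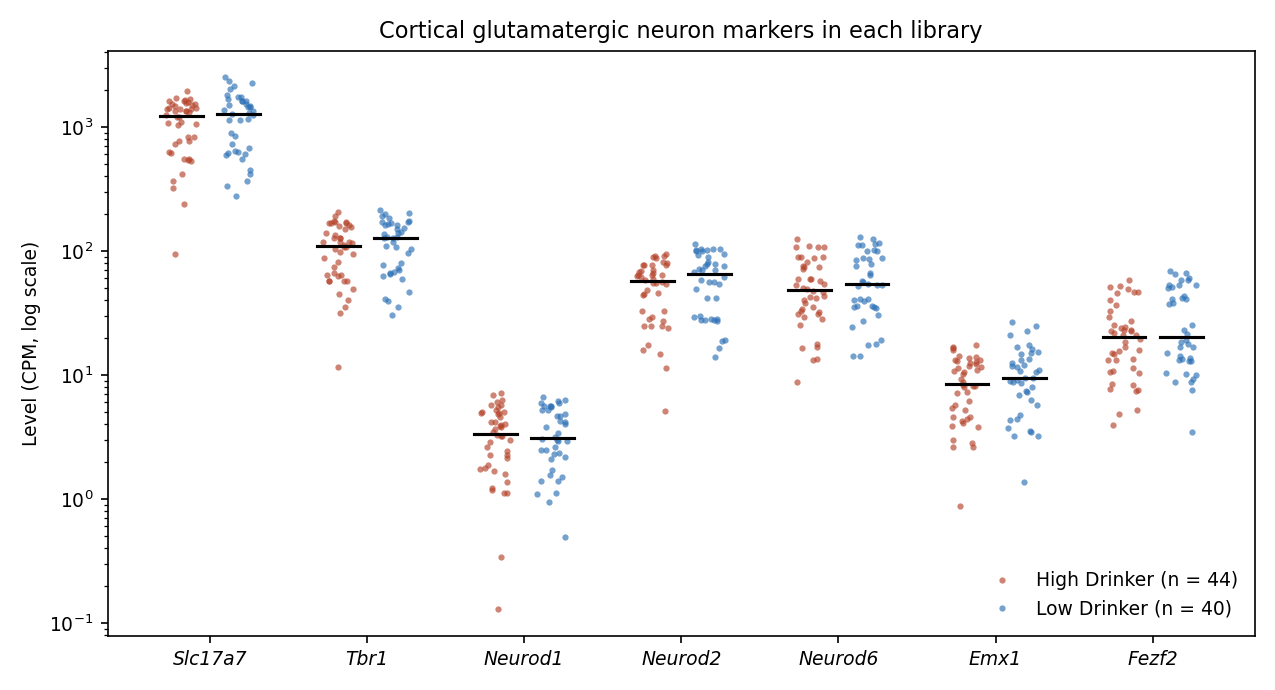
Level of each of the 7 markers in CPM (log axis) in every library, with High Drinker libraries (n = 44) left of Low Drinker libraries (n = 40) and black lines at the medians. The lines overlap for all 7 genes, and High Drinker 17 forms the lowest point for 6 of them.

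The spread between dissections was wide for every member. The highest library exceeded the lowest 14.7-fold for Neurod6, 18.5-fold for Tbr1, 20.01-fold for Fezf2, 22.5-fold for Neurod2, 26.5-fold for Slc17a7, 30.4-fold for Emx1 and 54.8-fold for Neurod1. Without the 5 libraries that stood apart these ratios were 9.70, 6.74, 19.1, 9.03, 9.46, 18.1 and 20.8. After removal of numbering set, sex and line, the residual SD of log2 CPM was 0.74 for Tbr1, 0.77 for Slc17a7, 0.81 for Neurod2, 0.84 for Neurod6 and Emx1, 0.94 for Neurod1 and 1.01 for Fezf2. The median over all 17909 tested genes was 0.27, and 90.9% to 96.5% of tested genes had a smaller SD than the members. The biological coefficient of variation that edgeR estimates ran from 0.454 (Tbr1) to 0.631 (Fezf2), beside a median of 0.172 over all tested genes. Counting error was not estimated apart from this spread. It bears most on Neurod1, the scarcest member, whose counts ran from 4 to 237.

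The same libraries were extreme for several members. High Drinker 17 was the lowest of 84 for 6 of the 7 genes and second lowest for Fezf2, whose lowest library was Low Drinker 24. In High Drinker 17 Slc17a7 was at 94.7 CPM and Ppp1r1b at 2303 CPM, the second highest Ppp1r1b of all. High Drinker 4, with the highest Ppp1r1b (2687 CPM), had the second lowest Slc17a7 (237.4 CPM), and all 7 of its markers were among the 10 lowest libraries. At the other end, Low Drinker 33 had the highest Slc17a7 (2513 CPM), Neurod2 (114.2 CPM) and Fezf2 (68.9 CPM) and the second lowest Ppp1r1b (109.8 CPM). Low Drinker 32 had the lowest Ppp1r1b (81.1 CPM), with Slc17a7 at 2139 CPM, and Low Drinker 34 had the highest Emx1 (26.5 CPM). A few libraries departed from this mirror image: in Low Drinker 2, 6 of the 7 markers were among the 10 lowest, while Ppp1r1b ranked 39th from the lowest.

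Across animals the 7 markers rose and fell together. Pearson's r between residual log2 CPM values (numbering set, sex and line removed) was positive for all 21 pairs, from 0.666 to 0.972 with a median of 0.869 (0.631 to 0.966 without the 5 libraries that stood apart). All 21 passed a two-sided permutation test with Benjamini-Hochberg adjustment, by r and by Spearman's rho. The closest pair was Slc17a7 and Neurod2 (r = 0.972, rho = 0.953), followed by Tbr1 and Neurod2 (r = 0.961, rho = 0.943) and by Neurod6 and Fezf2 (r = 0.950, rho = 0.949). The loosest was Neurod1 and Fezf2 (r = 0.666, rho = 0.621). Slc17a7 was less close to Fezf2 (r = 0.784) than to Emx1 (r = 0.915) or Tbr1 (r = 0.937), although these r values were not tested against each other. CPM values are shares of a library, which all members have in common.

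Against the striatal markers all 7 members ran in the opposite direction. With Ppp1r1b, r was -0.804 for Neurod6, -0.776 for Fezf2, -0.769 for Neurod2, -0.750 for Emx1, Tbr1 and Slc17a7, and -0.720 for Neurod1. Spearman's rho was stronger, from -0.795 (Fezf2) to -0.869 (Neurod2). The members' r ran from -0.657 to -0.759 with Drd1, the dopamine receptor of direct-pathway neurons, from -0.611 to -0.733 with Adora2a, the adenosine receptor of indirect-pathway neurons, and from -0.634 to -0.726 with Pde10a, a phosphodiesterase of both. Gad1, which makes GABA, gave -0.607 (Neurod1) to -0.856 (Fezf2). Snap25, a synaptic fusion protein of neurons in general, ran with the members, at 0.662 (Neurod1) to 0.840 (Neurod6). Of 56 relations tested, 42 passed the permutation test with 100000 resamples (35 negative and 7 positive). Each had an adjusted p of 1.33e-05 from an unadjusted 1e-05 in that test, the smallest these resamples can give. The 7 markers rose and fell together, so the 42 are not separate observations. The share of all genes that would pass with the same partners was not computed.

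**Figure D2:**
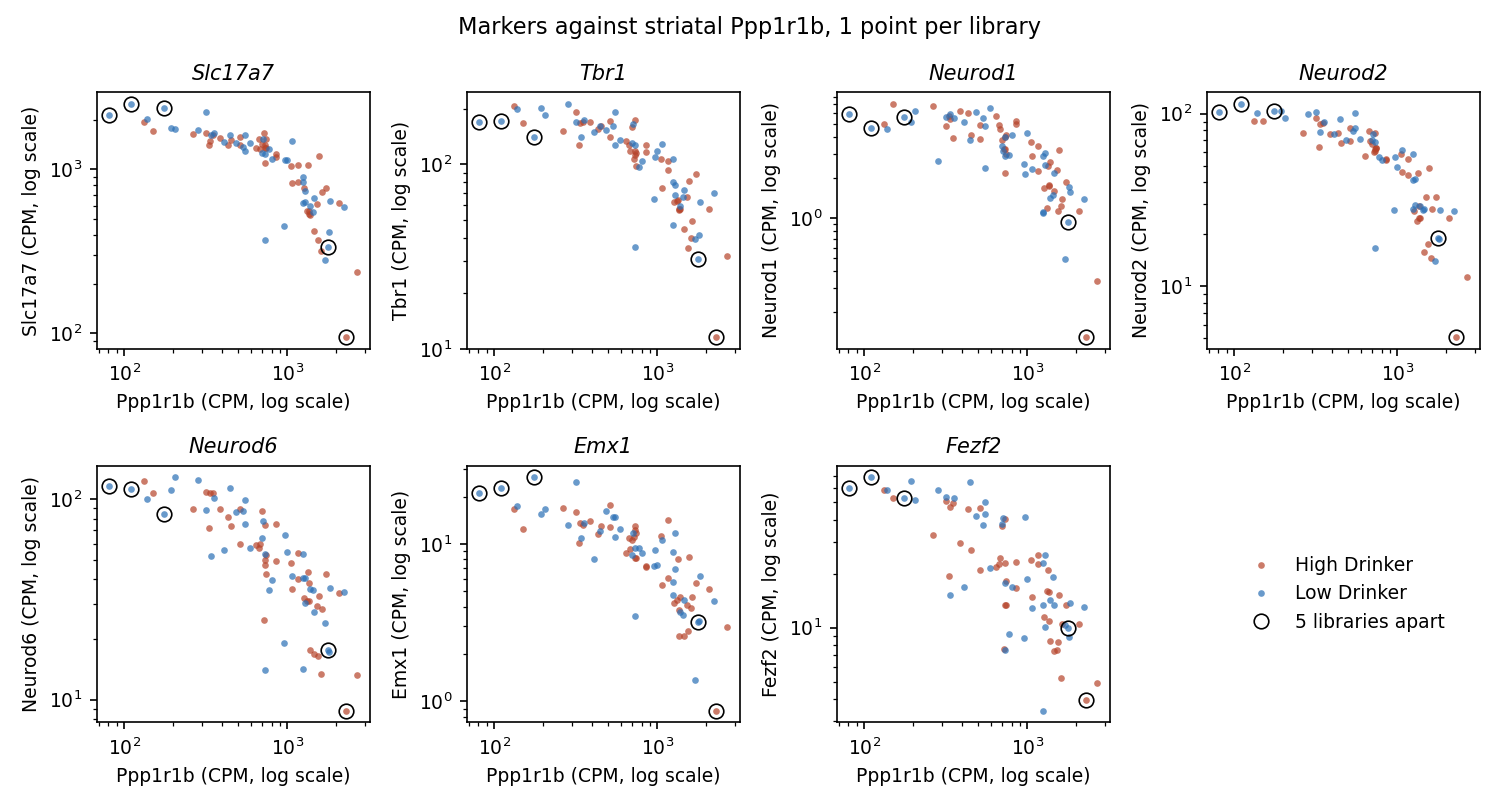
Each panel plots 1 cortical marker against Ppp1r1b, both in CPM on log axes, with 1 point per library coloured by line and the 5 libraries that stood apart circled. All 7 panels slope downwards in both lines, with Low Drinker 32, 33 and 34 at low Ppp1r1b and High Drinker 17 at 2303 CPM of Ppp1r1b.

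The relations to glial markers were weaker. With Mbp, a myelin protein, r lay between -0.216 (Neurod1) and -0.0192 (Fezf2), and with Aqp4, the astrocyte water channel, between -0.141 (Fezf2) and 0.227 (Neurod1). By r 0 of these 14 relations passed, and by rho 1 did, Neurod1 with Aqp4 (rho = 0.284).

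The 42 relations kept their direction and passed in each subset that was fitted. With Ppp1r1b, r was -0.801 (Neurod1) to -0.874 (Neurod6) within numbering set 1 and -0.599 (Neurod1) to -0.799 (Emx1) within numbering set 2. Numbering set 3 holds 6 libraries and was not fitted alone. Without the 5 libraries that stood apart r was -0.747 (Emx1) to -0.820 (Tbr1). Leaving out the 2 libraries farthest from the median of Ppp1r1b gave -0.721 (Neurod1) to -0.805 (Neurod6). For the comparison of lines, the residuals from all 84 libraries were split by line and not fitted anew. In High Drinker libraries r with Ppp1r1b was then -0.742 for Slc17a7, -0.800 for Tbr1 and -0.841 for Neurod6. In Low Drinker libraries it was -0.795, -0.698 and -0.761. Fitted within each line alone, r was -0.749, -0.809 and -0.845 in High Drinker and -0.808, -0.699 and -0.761 in Low Drinker libraries. The difference in r between the lines, tested by permuting line within sex and numbering set, passed for 0 of 7 members by Fisher's z (0 at an unadjusted p under 0.05, adjusted p from 0.746 to 0.970).

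**Figure D3:**
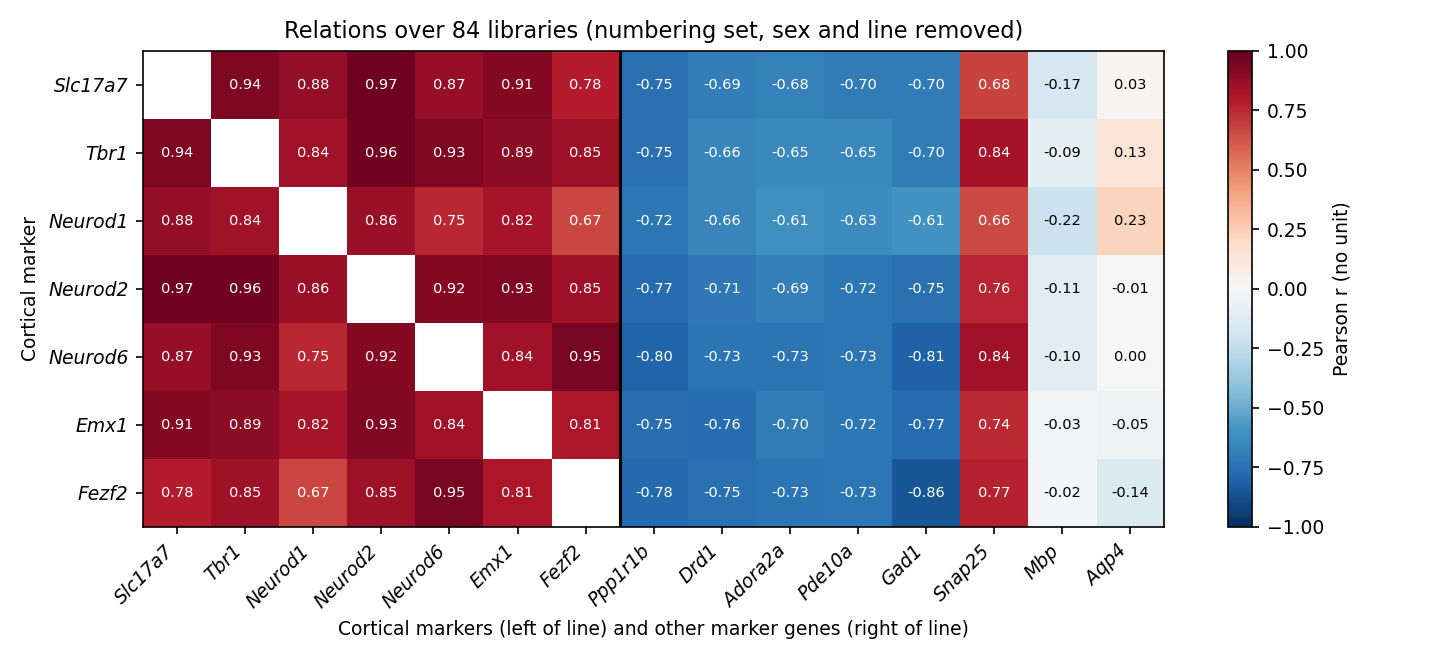
Pearson's r of residual log2 CPM over 84 libraries for each cortical marker (rows) with the other cortical markers (left of the line) and with 8 marker genes of other kinds (right of the line), on a colour scale from -1 to 1. The left block is positive throughout, the columns of Ppp1r1b to Gad1 are negative, and Mbp and Aqp4 lie between -0.216 and 0.227.

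Among 13258 other genes with a mean of at least 1 CPM, the one most like Slc17a7 over the 84 libraries was Rtn4rl2, a Nogo receptor relative (r = 0.973). Emx1 was most like Rtn4r, the Nogo receptor itself (r = 0.974), Tbr1 most like Ipcef1 (r = 0.976), and Neurod2 most like Fhl2 (r = 0.966). Neurod6 was most like Nptx1, a neuronal pentraxin (r = 0.956), Fezf2 most like the zinc-finger gene Ovol2 (r = 0.959), and Neurod1 most like Bhlhe22 (r = 0.950). Next came St8sia5 and Sstr3 for Slc17a7, Kcnj3 and Nptx1 for Tbr1, Nptxr and Sidt1 for Neurod1, Olfm1 and Ube2ql1 for Neurod2, Ncald and Rspo2 for Neurod6, Olfm2 and Stx1a for Emx1, and Tmem178 and Khdrbs3 for Fezf2, with r from 0.916 to 0.961. The most opposite gene was Serpine2 for Slc17a7, Tbr1 and Neurod2 (r = -0.848, -0.875 and -0.875), Zfp467 for Neurod6 and Fezf2 (r = -0.908 and -0.875), Inpp5f for Emx1 (r = -0.866) and Rcl1 for Neurod1 (r = -0.824). These are descriptions of rank, and 24.6% to 31.8% of the compared genes had an r beyond 0.5 in either direction with a given member.

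Other glutamatergic genes were set against Slc17a7 and Fezf2, the members least alike among the more abundant ones, in 66 further relations. Of 20 other pallial genes, 17 ran with Slc17a7 and 1 against it past the permutation test, and 18 ran with Fezf2 and 1 against it. How many of all genes would pass the same test was not computed. Of the 13258 compared genes, 27.6% had an r beyond 0.5 in either direction with Slc17a7 and 27.4% with Fezf2. Slc30a3, the vesicular zinc transporter, followed Slc17a7 (r = 0.928, rho = 0.910). Tle4, a corepressor of corticothalamic neurons also present in striatum, ran against Slc17a7 (r = -0.393, rho = -0.502). Genes of the claustrum and endopiriform nucleus, which border the ventrolateral striatum, were mixed. Of 8, 2 ran with Slc17a7 (Gng2, r = 0.731, and Ntng2, r = 0.638) and 5 against it, among them Synpr (r = -0.616) and Oprk1 (r = -0.591). Ntng2 was less steady, with rho = 0.418 and r = 0.352 within numbering set 2. With Fezf2, Ntng2 gave r = 0.183 and did not pass, while Gng2 gave r = 0.708. Which cells express these genes cannot be told in bulk tissue. Nr4a2, a defining claustrum factor, gave r = 0.101 with Slc17a7 and -0.195 with Fezf2, and neither passed. Of 5 subcortical glutamatergic genes, Slc17a8, the transporter also used by striatal cholinergic neurons, ran against Slc17a7 (r = -0.751). Slc17a6, the transporter of thalamic neurons, passed with Slc17a7 at r = 0.272, but r was 0.102 without the 2 libraries farthest from its median, 0.0967 without the 5 that stood apart and -0.121 within numbering set 2.

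The markers also differed between numbering sets. Slc17a7 had a median of 1502 CPM in set 2 (n = 30), against 1054 CPM in set 1 (n = 48) and 411.6 CPM in set 3 (n = 6), and Ppp1r1b had 548.1 CPM in set 2, 1120.6 CPM in set 1 and 1271 CPM in set 3. Slc17a7 exceeded Ppp1r1b per length in 27 of 30 libraries of set 2, 22 of 48 of set 1 and 0 of 6 of set 3. In edgeR's quasi-likelihood test, with sex and line in the model, 4 of the 7 members were higher in set 2 than in set 1: Emx1 by 0.58 ± 0.19 on the log2 scale (SE, adjusted p = 0.0196), Slc17a7 by 0.56 ± 0.16 (adjusted p = 0.0109), Neurod2 by 0.54 ± 0.17 (adjusted p = 0.0195) and Tbr1 by 0.47 ± 0.16 (adjusted p = 0.0267). The background was high, since 24.3% of all tested genes were called between these sets. Neurod1 (0.40), Fezf2 (0.37) and Neurod6 (0.34) did not pass. Without the 5 libraries that stood apart, 0 of the 7 passed in edgeR, with log2 differences of 0.19 to 0.41, and the number of genes called over all genes was 1527 in place of 4354.

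**Figure D4:**
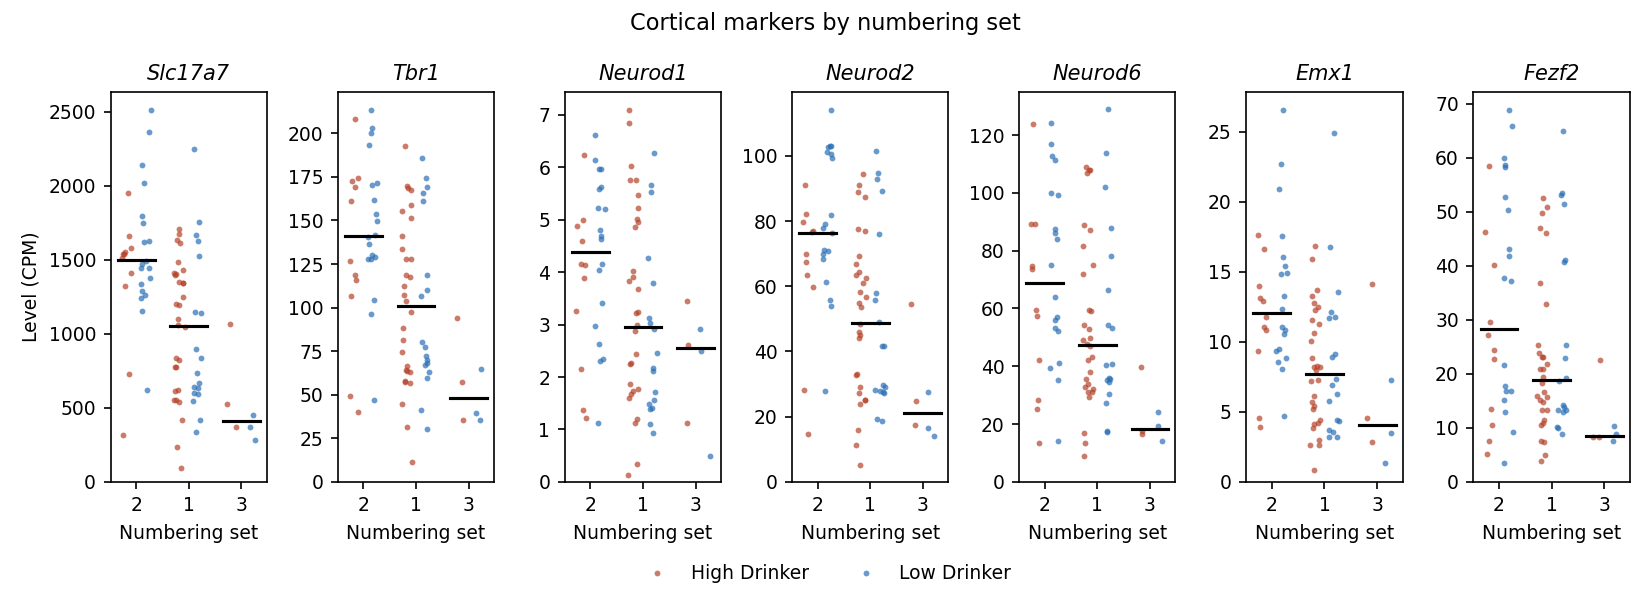
Level of each marker in CPM (linear axes from 0) in numbering sets 2, 1 and 3, with 1 point per library coloured by line and black lines at the medians. The medians of all 7 genes are highest in set 2 and lowest in set 3, for Slc17a7 at 1502, 1054 and 411.6 CPM in the order drawn.

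High Drinker and Low Drinker mice were compared with edgeR's quasi-likelihood test, with numbering set and sex in the model. Of 17909 genes tested, 696 were called at an adjusted p under 0.05, which is 3.89%, and 0 of the 7 markers were among them. At an unadjusted p under 0.05 there were 0 members too, and DESeq2 and limma-voom also called 0. The members' log2 fold changes, High Drinker over Low Drinker, were 0.10 for Neurod1, 0.04 for Slc17a7, 0.002 for Tbr1, -0.03 for Neurod2, -0.05 for Neurod6, -0.08 for Emx1 and -0.24 for Fezf2, with a median of -0.03 beside -0.003 over all genes. Adjusted p-values ran from 0.608 (Fezf2) to 0.997 (Tbr1).

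The intervals show what size of difference the data leave room for. Slc17a7 averaged 1104 ± 476.3 CPM in High Drinker libraries and 1227 ± 602.9 CPM in Low Drinker libraries (SD, n = 44 and 40), and its log2 difference in the model had a 95% interval of -0.27 to 0.35. For Tbr1 the interval was -0.30 to 0.30, and for Neurod1 -0.28 to 0.48. Fezf2 averaged 22.7 ± 14.7 CPM in High Drinker libraries and 30.0 ± 20.4 CPM in Low Drinker libraries, with an interval of -0.67 to 0.19, the widest of the 7. None of the intervals excluded 0 and none reached a difference of 1 on the log2 scale.

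Related gene groups gave the same count of 0. Of 20 other pallial genes 0 passed, with 11 higher in High Drinker libraries and a median log2 difference of 0.01, and of 8 claustrum and endopiriform genes 0 passed (median 0.04). Of 14 medium spiny neuron markers 0 passed, and 13 had positive differences (median 0.13). Of 6 microglia markers 1 passed, the protease gene Ctss, which averaged 49.7 ± 7.57 CPM in High Drinker libraries and 53.6 ± 7.32 CPM in Low Drinker libraries (SD, n = 44 and 40; log2 difference -0.15, adjusted p = 0.0303 in edgeR). The summed level of the 14 medium spiny neuron markers had a lowest, median and highest value of 1078, 6204 and 18690 CPM in High Drinker libraries, against 661.6, 5273 and 15032 CPM in Low Drinker libraries. That of the 7 cortical markers was 125.1, 1493 and 2454 CPM in High Drinker libraries, against 369.5, 1562 and 3008 CPM in Low Drinker libraries. This second sum mostly restates Slc17a7, which averaged 1163 CPM over the 84 libraries, against 113.1 CPM for Tbr1, the next by CPM. The part of this tissue makeup in the line comparison of the markers was not tested. With the mean of the medium spiny neuron markers as a covariate the members' log2 differences ran from -0.14 (Fezf2) to 0.18 (Neurod1), and those of Neurod2, Neurod6 and Emx1 changed sign.

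Between the sexes 0 of the 7 markers were called. Of all genes 21 were called between males and females by edgeR (0.117%), and 0 members were at an unadjusted p under 0.05. The members' log2 differences, male minus female, ran from -0.02 (Emx1) to 0.20 (Fezf2). limma-voom also called 0 members.

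The line difference was then compared between the sexes. In males alone the log2 difference, High Drinker over Low Drinker, was below 0 for 6 members, from -0.21 (Slc17a7) to -0.77 (Fezf2), and 0.03 for Neurod1. In females alone it was above 0 for all 7, from 0.13 (Neurod1) to 0.29 (Slc17a7). Of the 5 libraries that stood apart, 3 are from Low Drinker males, and without the 5 the difference ran from -0.70 (Fezf2) to 0.07 (Neurod1) in males and from 0.12 (Neurod1) to 0.28 (Slc17a7) in females. The interaction test of edgeR called 0% of all genes (1020 of 17909 at an unadjusted p under 0.05), and so 0 members, as did limma-voom. All 7 interaction terms were negative. That of Fezf2 was the largest at -0.98 ± 0.41 (SE) and the only member with an unadjusted p under 0.05 (p = 0.0196 in edgeR, adjusted p = 0.791). Without the 5 libraries it was -0.90 (adjusted p = 0.952 in edgeR), and all 7 terms were again negative. The 7 markers rose and fell together over these libraries, so their shared signs within a sex or in the interaction are not separate observations. Fezf2 had medians of 16.7 CPM in High Drinker males and 40.9 CPM in Low Drinker males, and of 20.9 CPM in High Drinker females and 17.3 CPM in Low Drinker females. The raw medians of Ppp1r1b lay the other way. For males they were 856.4 CPM (High Drinker) and 623.8 CPM (Low Drinker), for females 736.8 and 970.5 CPM. The medians of both genes leave numbering set out of account. Ppp1r1b had a median of 548.1 CPM in set 2, against 1120.6 CPM in set 1. Set 2 holds 19 Low Drinker libraries but 11 High Drinker ones. Whether Ppp1r1b keeps this order within a single set was not tested, nor was its part in the pattern. Without the 5 libraries the Fezf2 medians were 16.7 CPM in High Drinker males and 37.7 CPM in Low Drinker males, and 21.7 CPM in High Drinker females and 17.8 CPM in Low Drinker females.

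**Figure D5:**
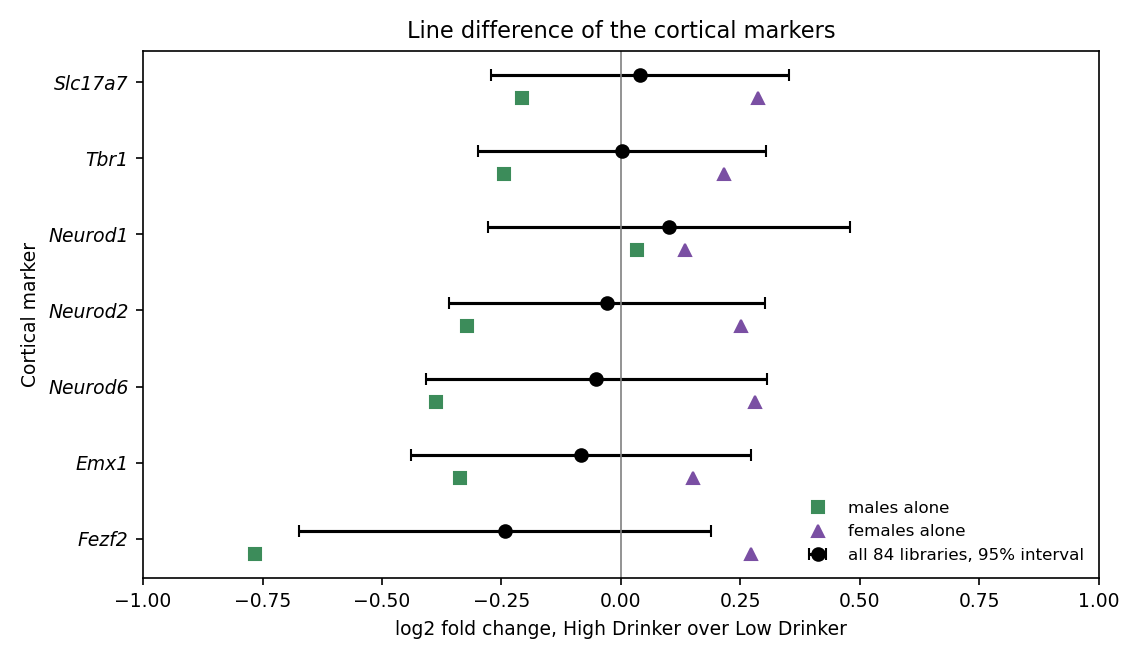
Log2 fold change of each marker, High Drinker over Low Drinker, in all 84 libraries with its 95% interval (black), in males alone (squares) and in females alone (triangles). All 7 intervals include 0, and the male and female estimates lie apart most for Fezf2, at -0.77 and 0.27.

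The study's design also names differential variance, so the spread between animals was compared. The mean absolute deviation of log2 CPM from the median of line and sex was 0.63 in High Drinker libraries and 0.66 in Low Drinker libraries for Slc17a7. For Fezf2 it was 0.78 in High Drinker libraries and 0.84 in Low Drinker libraries. A limma test on these deviations called 2 of 17909 genes (0.0112%) and 0 members, with 0 members at an unadjusted p under 0.05. That test has numbering set and sex in its model, so its differences are not the plain differences of the means above. The members' model differences, High Drinker minus Low Drinker, ran from -0.07 (Slc17a7) to 0.03 (Neurod6), with adjusted p-values of 0.983 to 0.997. The wide spread of the cortical markers was thus present in both lines, with no difference between them detectable at this sample size.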

How the data were processed

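RNA was sequenced from hand-dissected tissue, as single-end reads of amplified cDNA, per the labels' protocols. What the authors deposited is 1 table of unnormalized counts in featureCounts layout. FastQC, STAR, featureCounts (Subread) and edgeR were used with mm10, per the submitters' processing notes. The sources used here do not give strand or multi-mapping settings. The table's exon length, deposited by the authors, served for RPKM. Symbols were found for 42462 of 43629 identifiers in the GENCODE annotation.

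Line, sex, interaction and numbering set were tested with edgeR 4.0.16 in R 4.3.3 (TMM, filterByExpr, quasi-likelihood F-test, model with numbering set, sex and line), with Benjamini-Hochberg adjustment over 17909 genes at 0.05. SEs are the log2 fold change over the root of F. Spread used limma 3.58.1 on log2 CPM with a prior count of 2. Relations used residual log2 CPM and 100000 permutations (20000 in alternatives). DESeq2 1.42.0, limma-voom and sva 3.50.0 gave alternatives. The steps were tested on simulated data. The 3486 library pairs held 0 identical ones. P-values measure the spread between animals. Genes named as most or least alike are the 3 highest and 2 lowest by r with an established symbol, of which the text gives the most opposite 1; genes named from other lists in the 66 further relations were chosen after their values were seen, as were those relations and the comparison of numbering sets. The members and lists were chosen with earlier results of these data known.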

Additional observations from a re-analysis of the deposited data

How the results depend on the processing

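The count of members called between the lines, between the sexes, in the interaction and in spread was 0 in each alternative run, and the 42 relations to Ppp1r1b, Drd1, Adora2a, Pde10a, Gad1 and Snap25 kept their direction and passed in each. What changed were line, sex and spread differences of members that passed in no setting, the 4 member differences between numbering sets 2 and 1, relations to glial genes, and counts over all genes; the cause was not tested. Leaving out libraries also leaves fewer samples. Depth limits Neurod1 most.

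Genes called between the lines (696 in the model as reported) numbered 76 within numbering set 1, 76 within set 2, 126 in males (99 without the 5 libraries that stood apart), 37 in females (15 without those 5), 444 without the 5 libraries in both sexes, 2482 with 5 surrogate variables and 1.1e+03 with the medium spiny neuron covariate. Between the sexes 34 genes were called with no filter in place of 21. Between numbering sets 2 and 1, without the 5 libraries, 0 members and 1527 genes were called, in place of 4 and 4354. In spread 0 genes were called without the 5 libraries and 5 with a prior count of 0.5, in place of 2.

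The log2 line difference changed sign as follows. Slc17a7 was at -0.21 in males (-0.15 without the 5 libraries), -0.14 without the set term, -0.14 within set 2 and -0.0174 without set 3. Tbr1 was at -0.0375 with 5 surrogate variables, -0.0436 by limma-voom, -0.25 in males (-0.24 without the 5 libraries), -0.13 without the set term, -0.18 within set 2, -0.0254 without set 3 and -0.00256 without the 5 libraries. Neurod1 was at -0.0206 without the set term and -0.22 within set 2. Neurod2 was at 0.25 in females with and without the 5 libraries, 0.0550 with the covariate and 0.0357 within set 1. Neurod6 was at 0.28 in females (0.27 without the 5 libraries) and 0.0212 with the covariate. Emx1 was at 0.15 in females with and without the 5 libraries and 0.0451 with the covariate, and Fezf2 at 0.27 in females (0.28 without the 5 libraries). The values in 1 sex without the 5 libraries and all alternatives for the numbering sets were chosen after seeing the data. The male minus female difference changed sign without the 5 libraries for Slc17a7 (-0.0806), Tbr1 (-0.0230), Neurod1 (-0.0814) and Neurod2 (-0.0481), and by limma-voom for Emx1 (0.0572). The spread difference of Neurod1 was -0.00413 without the 5 libraries.

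Relations to Mbp changed sign within set 2 for Slc17a7 (0.0563), Tbr1 (0.210), Neurod2 (0.172), Neurod6 (0.128), Emx1 (0.131) and Fezf2 (0.116). They did so without the 5 libraries for Tbr1 (0.0276), Neurod6 (0.0234), Emx1 (0.108) and Fezf2 (0.110), and by rho for Tbr1 (0.00810), Emx1 (0.0882) and Fezf2 (0.0740). Without the 2 farthest libraries Emx1 was at 0.0611 and Fezf2 at 0.0634, within Low Drinker Emx1 at 0.0752 and Fezf2 at 0.00478, and within High Drinker Fezf2 at 0.0443. Relations to Aqp4 changed sign within set 1 for Neurod2 (0.155), Emx1 (0.138) and Fezf2 (0.124), and within set 2 for Slc17a7 (-0.245), Tbr1 (-0.150) and Neurod6 (-0.318). Within High Drinker they did so for Neurod2 (0.184), Emx1 (0.193) and Fezf2 (0.133), and within Low Drinker for Slc17a7 (-0.0910), Tbr1 (-0.0128) and Neurod6 (-0.121). Without the 5 libraries Slc17a7 was at -0.0381 and Neurod6 at -0.0525, and with nothing removed Slc17a7 was at -0.0774 and Neurod6 at -0.0886. Without the 2 farthest libraries Neurod2 was at 0.0553 and Emx1 at 0.0220, and by rho Neurod6 was at -0.00603. Of the 14 relations to Mbp or Aqp4, 5 passed in at least 1 alternative and not in the model as reported, in 11 cases in all, of which 8 concern Neurod1.

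No paired analysis was possible because the replicate numbers were given in accession order and pair no animals.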
